A study of Danio rerio with 4 samples.

Results

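Hepatocyte identity is held by a small set of DNA-binding proteins that bind each other's genes and the genes of the plasma proteins and metabolic enzymes that the liver makes. The forkhead factors Foxa1, Foxa2 and Foxa3 open closed chromatin at liver genes, the nuclear receptor Hnf4a acts in liver formation and keeps the hepatocyte differentiated, and the leucine zipper factors Cebpa and Cebpb regulate metabolic and acute-phase genes. The cut-homeodomain factor Onecut1 acts in bile duct and pancreas formation, and Prox1 drives the growth and migration of hepatoblasts.

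The genes were chosen by symbol from a list of 9 factors, and 8 of them (*hnf4a*, *foxa1*, *foxa2*, *foxa3*, *cebpa*, *cebpb*, *onecut1* and *prox1a*) were found among the 16405 genes of the processed table. The other factor was not analysed here. Livers of fasted WT zebrafish (replicates 1 and 4) and of fasted *pex5*-/- zebrafish (replicates 1 and 2), all at 6 dpf (days post-fertilization), were compared, and the comparison asks which transcripts differ between the genotypes under fasting. The *pex5*-/- animals are homozygous for a small CRISPR/Cas9 deletion predicted to truncate the protein and descend from 1 founder, so that every cell of the animal, not the liver alone, carries the mutation. *pex5* encodes the receptor that brings enzymes into peroxisomes, and the *pex5* transcript itself was not analysed here. How many livers went into each RNA sample is not given in the sources used here, and p-values measure only the spread between these libraries, which may be technical.

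The libraries were made by CEL-Seq2, which reads each transcript near its 3′ end and tags each captured molecule, so a gene's read count does not grow with its length. Values are given as reads, or as TMM, which are reads scaled for library size by the trimmed mean of M-values. The libraries held 1217737 to 1425834 reads, and 1 read was worth 0.691 to 0.785 TMM. Of the 8 factors, 5 had a mean of at least 10 TMM and entered the limma test, which covered 3349 genes. Hepatocyte markers fixed by symbol were read beside the tissue label, and 13 were found. All 13 had reads, as had 14832 of the 16405 genes, which by itself does not tell the tissue. Of the 13, 12 averaged 10 TMM or more, as did 3349 of the 16405 genes. *fabp10a*, the liver fatty acid binding protein used to mark zebrafish hepatocytes, had a mean of 4844 TMM. Markers of other tissues were present too and differed between libraries. The summed level of the intestine markers was 1366 TMM in *pex5*-/- replicate 1 against 90.8 to 268 TMM in the other libraries, that of the heart markers was 230 and 313 TMM in WT and 31.6 and 96.1 TMM in *pex5*-/-, and that of the exocrine pancreas markers was 1775 to 4471 TMM with the highest value in WT replicate 4. The erythrocyte markers summed to 1254 and 559 TMM in WT and 2322 and 2041 TMM in *pex5*-/-.

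The 8 factors fell into 3 levels in fasted larval liver. *prox1a*, *foxa1* and *cebpb* were the abundant ones, with means of 128, 117 and 114 TMM over the 4 libraries, above 96.5%, 96.2% and 96.2% of all genes with reads. *foxa2* and *foxa3* lay lower, at 21.0 and 20.7 TMM. *cebpa*, *hnf4a* and *onecut1* had few reads, with 23 reads, 7 reads and 1 read in all 4 libraries together. Reads count for a gene only where its annotation reaches the 3′ end of the transcript. This was not tested for any factor, so low counts may understate a transcript. Among the 33 factor genes that averaged 10 TMM or more, which include nuclear receptors and other liver regulators, *prox1a*, *foxa1* and *cebpb* took ranks 4, 5 and 6. The genes above them were *xbp1*, a regulator of the secretory pathway, *tefa*, a clock-output factor, and *cebpd*, a paralogue of *cebpb*. The order of the first 3 factors was not the same in each library. *cebpb* was the most abundant in WT replicate 1 and *pex5*-/- replicate 2, and *prox1a* in WT replicate 4 and *pex5*-/- replicate 1. Their means did not differ beyond the spread between libraries, and neither did those of *foxa2* and *foxa3*.

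**Figure D1:**
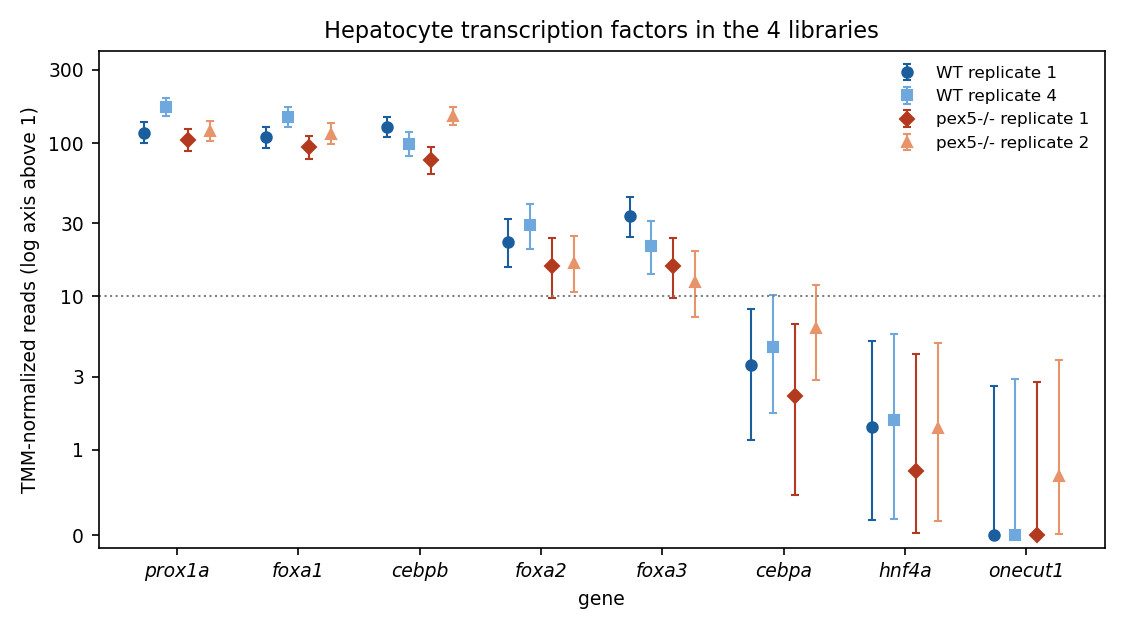
TMM-normalized reads of the 8 factors in each library, on an axis that is logarithmic above 1 and linear below. Points are single libraries, bars are exact 95% Poisson intervals of the read count (counting error only), and the dotted line marks the mean of 10 TMM needed for the test. *foxa2* and *foxa3* have both *pex5*-/- points below both WT points, whereas the genotypes overlap for *prox1a*, *foxa1* and *cebpb*.

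For the factors as a group, none passed an adjusted p under 0.05 between *pex5*-/- and WT livers. All 5 tested factors had a lower mean log2 value in *pex5*-/-, as had 49.5% of all tested genes, although for *cebpb* the mean TMM was 113 in WT and 114 in *pex5*-/-. Both *pex5*-/- libraries were below both WT libraries for 2 of the 5 (*foxa2* and *foxa3*), against 13.5% of all tested genes, and the reverse order held for 0 of the 5, against 16.9%. With libraries scaled to equal totals outside the mitochondrial genome, 62.3% of all genes were lower in *pex5*-/-, and 4 of the 5 factors lay below in both libraries against 22.2% of all genes. The median log2 difference of the 5 factors was -0.33, beside 0.00 for all tested genes. In limma, 0% of the 3349 genes passed the adjusted threshold (0 genes). At an unadjusted p under 0.05 there were 121, namely 1.07% lower and 2.54% higher in *pex5*-/-, and 0 of the 5 factors were among them. Weighting the reads with voom likewise gave 0 genes at the adjusted and 102 at the unadjusted threshold. With 2 libraries per genotype there are 6 splits, and the smallest two-sided p of an exact permutation test on 1 gene is 0.33. In bulk tissue, fewer cells that express a factor and less RNA per cell cannot be told apart.

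The lowest values relative to WT among the tested factors were those of *foxa3*, whose transcript marks the endoderm of the zebrafish embryo. *foxa3* (ENSDARG00000012788, chromosome 18) had 33.4 TMM in WT replicate 1, 21.2 TMM in WT replicate 4, 15.8 TMM in *pex5*-/- replicate 1 and 12.4 TMM in *pex5*-/- replicate 2. The genotypes did not overlap, and WT replicate 1 stood highest. The means were 27.3 ± 8.59 TMM in WT and 14.1 ± 2.36 TMM in *pex5*-/- (SD, n = 2 libraries each), a ratio of 0.517. The log2 difference was -0.88 (limma standard error 0.37, 95% interval -1.82 to 0.06, unadjusted p = 0.0609, adjusted p = 1.00), larger than the differences within a genotype of -0.63 (WT replicate 4 minus 1) and -0.32 (*pex5*-/- replicate 2 minus 1). The reads behind it were few, 74 in WT and 39 in *pex5*-/-. Without WT replicate 4 the log2 difference was -1.19, and without WT replicate 1 it was -0.56. The 95% Poisson interval of WT replicate 4, 14.0 to 30.8 TMM, included the value of *pex5*-/- replicate 1.

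*foxa2* (ENSDARG00000003411, chromosome 17), which in mouse acts redundantly with *Foxa1* to make the foregut competent to form a liver, showed the same order of genotypes. Its level was 22.7 and 29.1 TMM in WT replicates 1 and 4 and 15.8 and 16.6 TMM in *pex5*-/- replicates 1 and 2. Here WT replicate 4 stood highest and the *pex5*-/- libraries were nearly equal. The means were 25.9 ± 4.49 and 16.2 ± 0.571 TMM (SD, n = 2 libraries each), a ratio of 0.625. The log2 difference of -0.64 (limma standard error 0.31, 95% interval -1.42 to 0.15, unadjusted p = 0.0911, adjusted p = 1.00) exceeded the within-genotype differences of 0.34 and 0.07. With a library left out it ranged from -0.81 to -0.46. It rests on 69 reads in WT and 45 reads in *pex5*-/-.

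*foxa1* (ENSDARG00000102138, chromosome 17) was the most abundant forkhead factor of the 3 in every library. It had 109 TMM in WT replicate 1, 148 TMM in WT replicate 4, 93.9 TMM in *pex5*-/- replicate 1 and 115 TMM in *pex5*-/- replicate 2. The genotypes overlapped, since *pex5*-/- replicate 2 was above WT replicate 1. Its log2 difference of -0.29 (limma standard error 0.29, 95% interval -1.04 to 0.46, adjusted p = 1.00) was smaller than the 0.44 by which the WT libraries differed and equal in size to the 0.29 of the *pex5*-/- libraries. It was -0.51 without WT replicate 1 and -0.07 without WT replicate 4.

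Together the 3 forkhead genes had 165 and 199 TMM in the WT libraries and 126 and 144 TMM in the *pex5*-/- libraries, so their sum did not overlap between genotypes and the ratio of the means was 0.742. The sum includes *foxa2* and *foxa3*, which were already lower without overlap, as were 13.5% of all tested genes. The sum of *cebpa*, *cebpb*, *cebpd* and *cebpg* (ratio 0.970) overlapped between genotypes. So did that of *hnf4a*, *hnf4b* and *hnf4g* (0.958). *foxa1* made up 66.1% of the reads of the 3 forkhead genes in WT replicate 1 (95% exact binomial interval 59.6% to 72.1%) and 74.7% in WT replicate 4 (68.9% to 79.9%). In the *pex5*-/- libraries its share was 74.9% (67.6% to 81.2%) and 79.9% (73.8% to 85.1%). The share of *foxa3* was 20.2% and 10.7% in WT and 12.6% and 8.61% in *pex5*-/-, with WT replicate 1 apart from the other libraries. These intervals cover counting error only. The intestine and pancreas also express forkhead factors, and the marker levels of these tissues given above did not separate the genotypes. The summed intestine level was highest in *pex5*-/- replicate 1, where *foxa1* and *foxa2* had their lowest values. *foxa3* had its lowest value in *pex5*-/- replicate 2. The summed exocrine pancreas level was highest in WT replicate 4 (4471 TMM), where *foxa1* and *foxa2* had their highest values. It was lowest in WT replicate 1 (1775 TMM), where *foxa3* was highest. Other lists did separate the genotypes. Both *pex5*-/- libraries were below both WT libraries for 5 of 6 tested heart markers, against 13.5% of all tested genes. The same held for 2 of only 3 tested biliary markers. Both were above for 6 of 10 tested erythrocyte markers, against 16.9% of all tested genes. Of the 12 tested hepatocyte markers, 4 lay above in this way and 2 lay below. The summed hepatocyte marker level was 144651 and 135946 TMM in WT and 195927 and 192630 TMM in *pex5*-/-, mostly from *apoa2* and *apoa1b*. The part of other cells in the forkhead values was not tested.

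*prox1a* (ENSDARG00000055158, chromosome 17), the homeobox gene that marks hepatoblasts and later hepatocytes and also lymphatic endothelium, had 117 TMM in WT replicate 1 and 171 TMM in WT replicate 4. In *pex5*-/- replicates 1 and 2 it had 105 and 120 TMM. WT replicate 4 was high and the other libraries were close to each other, with the genotypes overlapping. The log2 difference was -0.33 (limma standard error 0.30, 95% interval -1.10 to 0.44, adjusted p = 1.00), less than the 0.54 by which the WT libraries differed. Without WT replicate 4 it was -0.06, and without WT replicate 1 it was -0.60. Endothelial and lymphatic markers, with 9 of 14 symbols found and *tek* at 0 in all libraries, had a summed level of 75.2 and 91.9 TMM in WT and of 68.4 and 69.1 TMM in *pex5*-/-. The sum was thus lower in both *pex5*-/- libraries than in both WT libraries and highest in WT replicate 4, where *prox1a* was highest too. The 3 tested markers did not move together. *cdh5* lay higher in both *pex5*-/- libraries (28.6 and 31.1 TMM) than in WT replicates 1 and 4 (27.0 and 18.1 TMM). *kdrl* lay lower, at 11.3 and 13.8 TMM against 24.1 and 24.3 TMM. *egfl7* overlapped between genotypes, with 30.6 TMM in WT replicate 4 and 11.4 to 15.2 TMM in the other libraries. *flt4* averaged 2.96 TMM, below the level needed for the test. The summed exocrine pancreas and heart levels were also highest in WT replicate 4 (4471 and 313 TMM). Those of the intestine and erythrocyte markers were highest in *pex5*-/- replicate 1. The part of endothelial, lymphatic and other cells in the *prox1a* values was not tested.

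The profile of *prox1a* over the 4 libraries was close to that of *foxa1*. After each gene's mean was subtracted, the root mean square distance between them was 0.06 on the log2(TMM + 1) scale, against a median distance of 0.49 between the 5 factors and the 28 other factor genes. The counting error of a single library was larger, 0.10 to 0.12 for *prox1a* and 0.10 to 0.13 for *foxa1* on the log2 scale. The nearest of the other factor genes were the same for both, namely *xbp1* (0.12 from *prox1a* and 0.13 from *foxa1*) and *nr1h5* (0.13 and 0.14), which encodes a nuclear receptor related to the bile acid receptor. For *foxa2* the nearest were *foxo3b* (0.16), a fasting-responsive forkhead factor of another subfamily, and *cebpg* (0.22). For *foxa3* they were again *foxo3b* (0.37) and *cebpg* (0.39), but at a greater distance. Here the counting error of a single library was 0.24 to 0.31 for *foxa2* and 0.21 to 0.34 for *foxa3* on the log2 scale. *foxo3b* had only 11 to 23 reads per library. These distances describe 4 libraries that share their depth and scaling and carry no test. *prox1a* and *foxa1* were named as the nearest pair of the 5 factors. The median of 0.49 is not matched for abundance, since it includes genes with fewer reads, whose counting error adds to the distance.

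**Figure D2:**
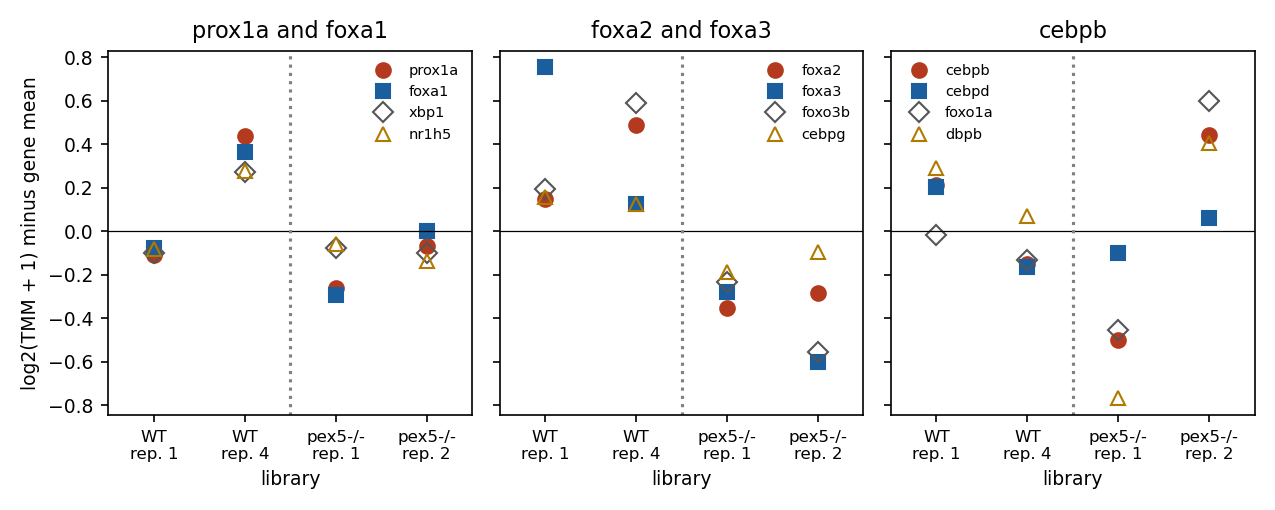
log2(TMM + 1) of each gene in each library after subtraction of the gene's mean over the 4 libraries. Filled points are *prox1a* and *foxa1*, *foxa2* and *foxa3*, or *cebpb* and *cebpd*, open points are the nearest other factor genes, and the dotted line separates WT from *pex5*-/-. *prox1a* and *foxa1* are highest in WT replicate 4, *foxa2* and *foxa3* are above their mean in both WT libraries, and *cebpb* is high in 1 library of each genotype.

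*cebpb* (ENSDARG00000042725, chromosome 8), which in mammals drives acute-phase and gluconeogenic genes, varied more within a genotype than between genotypes. It had 128 TMM in WT replicate 1 and 98.9 TMM in WT replicate 4, and 77.4 TMM in *pex5*-/- replicate 1 and 150 TMM in *pex5*-/- replicate 2. The *pex5*-/- libraries thus held both the lowest and the highest value. With 103 reads (95% Poisson interval 84.1 to 125) and 217 reads (189 to 248), they differed by more than counting error. The means were 113 ± 20.4 and 114 ± 51.3 TMM (SD, n = 2 libraries each), and the log2 difference was -0.06 (limma standard error 0.40, 95% interval -1.08 to 0.96, adjusted p = 1.00), beside -0.37 for WT replicate 4 minus 1 and 0.95 for *pex5*-/- replicate 2 minus 1. Its direction turned with the library left out, being 0.41 without *pex5*-/- replicate 1, 0.12 without WT replicate 1, and -0.53 without *pex5*-/- replicate 2. The nearest factor genes in profile were *foxo1a* (0.14), a forkhead factor restrained by insulin signalling, and *dbpb* (0.18), a clock-output factor. *dbpb* had only 7 to 19 reads per library, so counting error bears on its distance.

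*cebpa* (ENSDARG00000036074, chromosome 7), the factor that in mammals maintains the metabolic genes of the adult hepatocyte, was sparse. WT gave 5 and 6 reads and *pex5*-/- gave 3 and 9 reads, so that the mutant again held both extremes. In TMM these were 3.55, 4.71, 2.25 and 6.22, below the level needed for the test. A difference between genotypes was not detectable at this depth. *cebpg*, the next coding gene after *cebpa* in the GRCz12tu annotation and a partner of other leucine zipper factors, was read 34 and 30 times in WT against 25 and 29 times in *pex5*-/-. It was the 1 tested paralogue gene whose genotypes did not overlap (log2 difference -0.28, limma standard error 0.28, adjusted p = 1.00). *cebpd*, an acute-phase factor, was the most abundant of the 4 family genes in the WT libraries and *pex5*-/- replicate 1 and equalled *cebpb*, at 217 reads each, in *pex5*-/- replicate 2. The share of *cebpa* among the reads of these 4 genes was 0.971% to 1.91%.

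*hnf4a* (ENSDARG00000021494, chromosome 23) had 2 reads in each library but *pex5*-/- replicate 1, where it had 1. No difference was detectable at this depth, and the 95% Poisson interval of 2 reads runs from 0.242 to 7.22 reads. Most reads of the gene family were assigned to *hnf4g*, a paralogue that in mammals is prominent in intestine. It had 44.0 and 47.9 TMM in WT and 53.4 and 34.6 TMM in *pex5*-/-. Whether the annotation covers the 3′ end of *hnf4a* was not tested, so these counts do not show which paralogue had more transcript. *hnf4g* was highest in *pex5*-/- replicate 1, the library with the highest intestine marker level, and its part there was not tested. It made up 89.3% to 93.8% of the reads of *hnf4a*, *hnf4b* and *hnf4g* in every library, whereas *hnf4a* made up 1.32% to 3.57%. The log2 difference of *hnf4g* was -0.09 (limma standard error 0.32, adjusted p = 1.00).

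*onecut1* (ENSDARG00000007982, chromosome 18) had 0 reads in both WT libraries and in *pex5*-/- replicate 1 and 1 read in *pex5*-/- replicate 2. A count of 0 allows up to 3 reads by a one-sided 95% limit (3.69 reads by the two-sided interval used elsewhere), and 3 reads corresponded to 2.13 and 2.36 TMM in the WT libraries and 2.25 TMM in *pex5*-/- replicate 1. Its relatives *onecut2* and *onecutl* had at most 3 reads in any library. The biliary markers, the cell type where Onecut1 is best known, had a summed level of 866 and 1234 TMM in WT and 782 and 833 TMM in *pex5*-/-, nearly all of it from *anxa4*. The other biliary markers that averaged 10 TMM or more were *notch3*, with 33.2 ± 0.795 TMM in WT and 22.2 ± 3.78 TMM in *pex5*-/- (SD, n = 2 libraries each), and *sox9b*. Neither *anxa4* nor *notch3* overlapped between genotypes, and both had an adjusted p of 1.00 in limma. *sox9b* did overlap, with 12.8 and 17.3 TMM in WT and 10.5 and 15.9 TMM in *pex5*-/-. The remaining biliary markers averaged less than 10 TMM, some higher and some lower in *pex5*-/-.

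The wider set of liver regulators was read from lists of paralogues, nuclear receptors and other liver factors. Of the 28 tested genes on them, 4 lay higher in each *pex5*-/- library than in either WT library and 2 lay lower, beside 16.9% and 13.5% of all tested genes, and 0 passed the adjusted threshold. *tefa*, a PAR leucine zipper factor with a daily rhythm, had 138 and 121 TMM in WT and 217 and 211 TMM in *pex5*-/- (log2 difference 0.73, limma standard error 0.24, unadjusted p = 0.0304, adjusted p = 1.00). It was the 1 gene of the 28 with an unadjusted limma p under 0.05. Of all tested genes, 2.54% were higher and 1.07% lower in *pex5*-/- at that threshold. The others higher in both *pex5*-/- libraries were *nr2f6b* (0.47), an orphan nuclear receptor, *klf6a* (0.50), a zinc finger factor of liver growth in zebrafish, and *atf5b* (0.17), a stress-response factor. *foxo3b* was lower (-0.79), with 13.5 and 18.1 TMM in WT and 9.77 and 7.60 TMM in *pex5*-/-. The 9 tested nuclear receptors had a median log2 difference of -0.28, with 6 lower and 3 higher, and *pparaa* and *nr1i2* had no reads in any library.

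**Figure D3:**
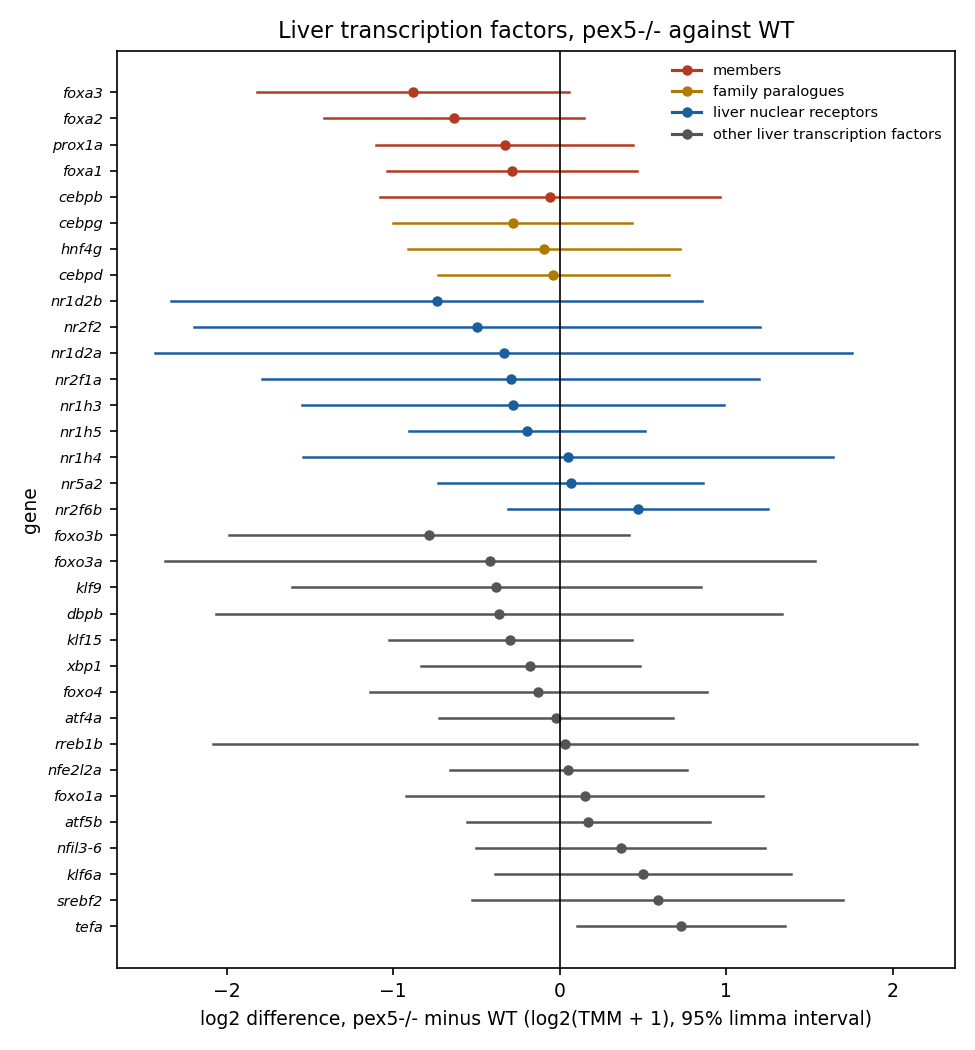
log2 difference between *pex5*-/- and WT (log2(TMM + 1), *pex5*-/- minus WT) of the 5 tested factors and the 28 other tested factor genes, with the 95% interval of limma. Points are the difference of the means of 2 libraries per genotype. The intervals of the 5 factors all include 0, and *tefa* is the gene whose interval does not.

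The genes that these factors are known to control in mammals were read next, from 3 lists matched by symbol. The lists share members and held 50 distinct tested genes, of which 7 were on more than 1 list. Whether each zebrafish gene, such as *afp4* on the Foxa list, is the counterpart of a mammalian target was not tested. Of the 50 genes, 10 lay above WT in both *pex5*-/- libraries without overlap and 11 lay below, beside 16.9% and 13.5% of all tested genes, and 0 passed the adjusted threshold. In the Hnf4a list, 9 of 26 tested genes were above in both *pex5*-/- libraries and 3 below, beside the same shares of all genes, and the median log2 difference was 0.06. The genes above with the lowest limma p were lipoprotein genes, namely *apoa2* (69299 ± 2495 TMM in WT and 121406 ± 3657 TMM in *pex5*-/-, SD, n = 2 libraries each), *apoa4b.1* (833 ± 182 and 2059 ± 173 TMM) and *apoc2* (872 ± 84.0 and 1831 ± 287 TMM). Those below were *cyp7a1*, the rate-limiting enzyme of bile acid synthesis (440 ± 140 and 265 ± 71.4 TMM), *uox*, urate oxidase of the peroxisome (4285 ± 219 and 3680 ± 202 TMM), and *pck1*, the gluconeogenic enzyme (303 ± 9.59 and 231 ± 92.8 TMM). For *pck1* the separation was a near tie, with 297 TMM in both WT replicate 1 and *pex5*-/- replicate 2. Of the other tested apolipoprotein genes on the list, *apoc1* (log2 difference 0.83) and *apoa4b.2* (3.46) lay above. *apoa4b.2* had 271 TMM in *pex5*-/- replicate 1 and 26.3 TMM in *pex5*-/- replicate 2. *apoa1a* (2.06), *apobb.1* (0.18), *apoa1b* (0.05), *apoba* (-0.06) and *apobb.2* (-0.14) overlapped between genotypes. The Hnf4a list thus held genes on either side, while *hnf4a* itself had too few reads for a direction.

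In the Foxa list, 2 of 14 tested genes were above and 3 below, beside 16.9% and 13.5% of all genes, with a median log2 difference of 0.12. The tryptophan dioxygenase genes *tdo2b* (log2 difference -0.57) and *tdo2a* (-0.61) and *pck1* (-0.45) were below, and *tfa*, transferrin (0.45), and *g6pca.1*, glucose-6-phosphatase (0.25), were above, the last by a near tie of 73.1 TMM in WT replicate 1 and 73.7 TMM in *pex5*-/- replicate 1. The Foxa list thus had values on both sides of 0.

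The C/EBP list had 2 of 19 tested genes above and 7 below, beside 16.9% and 13.5% of all genes. Its median log2 difference of -0.41 was the lowest of the 3 lists. *socs3b*, a feedback inhibitor of cytokine signalling, had 38.3 and 37.7 TMM in WT and 18.8 and 24.2 TMM in *pex5*-/- (log2 difference -0.80, limma unadjusted p = 0.0349, adjusted p = 1.00). *c3a.2*, a complement C3 gene (-0.53), and *fgg*, the fibrinogen gamma chain (-0.55), were below as well, and the haptoglobin gene *hp* on chromosome 8 (0.47) and *g6pca.1* were above. Some other acute-phase genes varied more within a genotype than between genotypes, and those named next were chosen after their values were seen. *hamp*, which encodes the iron hormone hepcidin, had 3259 TMM in WT replicate 1 and 780 TMM in WT replicate 4, against 1077 and 1999 TMM in *pex5*-/- replicates 1 and 2. This is the order in which *cebpb* was high, with WT replicate 1 and *pex5*-/- replicate 2 above the other library of their genotype, and 7 of the 19 tested genes of the list had it. The share of all tested genes with this order was not counted, so the 7 give no measure of a likeness to *cebpb*. WT replicate 1 was the higher WT library for 17 of the 19 and *pex5*-/- replicate 2 the higher *pex5*-/- library for 9. The complement gene *c3a.1*, for example, had 667 reads in *pex5*-/- replicate 1 and 434 in replicate 2. The fibrinogen beta chain gene *fgb* had 1587 and 1163 reads there. *fgb* is among the 7 genes below, with 1318 and 1279 TMM in WT and 1193 and 804 TMM in *pex5*-/-. *saa*, serum amyloid A, had 78 reads in WT replicate 1 and 0 to 2 reads in the other libraries, so its place among the 7 genes below rests on differences of scaling at 2 reads. The places of *pck1* and of *gys2*, liver glycogen synthase with 21 reads in both WT libraries and in *pex5*-/- replicate 2, rest on near ties too. The *hp* copy on chromosome 7 had 279 reads in WT replicate 1 and 0 to 2 reads elsewhere.

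**Figure D4:**
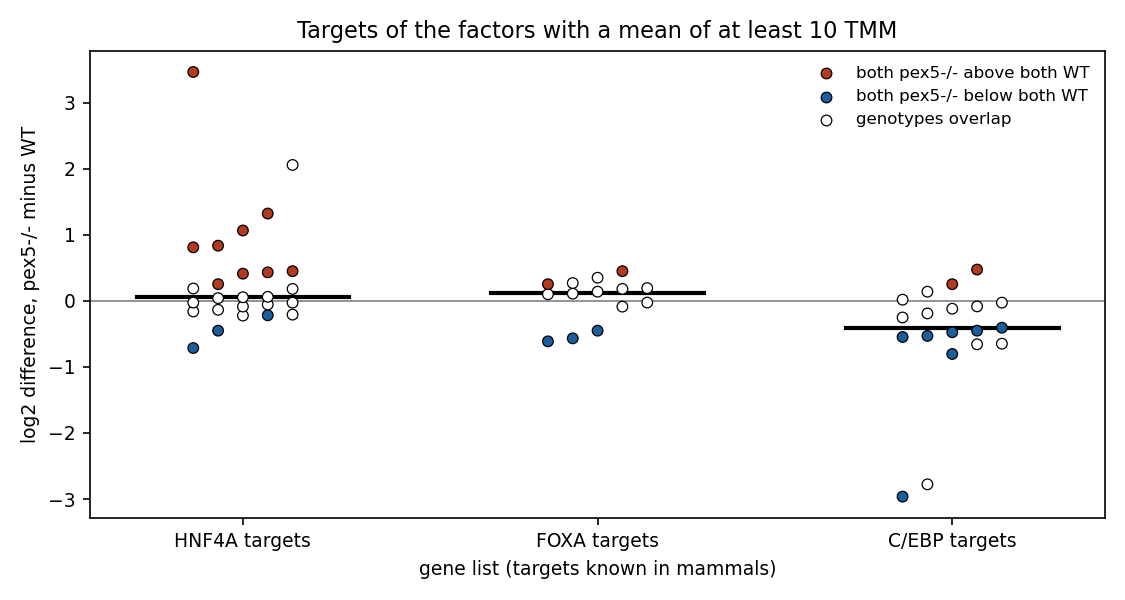
log2 difference between *pex5*-/- and WT (log2(TMM + 1), *pex5*-/- minus WT) of the tested genes on 3 lists of targets known in mammals. Each point is a gene, the thick line is the list's median (0.06, 0.12 and -0.41), and the colour shows whether both *pex5*-/- libraries lie above or below both WT libraries. A gene on more than 1 list appears in each.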

How the data were processed

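Members and gene lists were chosen by symbol with earlier results of these data known, so no p adjusted over a list is given. Per the labels and the methods of the study, the authors extracted UMIs and removed duplicates with UMI-tools (1.1.1), trimmed with Trim Galore (0.6.7), mapped to GRCz11 with HISAT2 (2.2.1), counted with featureCounts (2.0.1) and normalized by TMM with edgeR. The deposited values are on the log2(TMM + 1) scale. The annotation release and strand setting are not given in the sources used here. With the logarithm and the pseudocount of 1 removed, 100% of values were whole multiples of a step per library (tolerance 0.02), which gave the reads.

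limma 3.58.1 in R 4.3.3 (eBayes with trend) was fitted to the deposited log2 values of genes averaging 10 TMM or more, and p-values were adjusted by Benjamini-Hochberg over all of them (threshold 0.05). Python 3.11.15, numpy 2.4.6, pandas 2.3.3 and scipy 1.17.1 did the rest. Log2 differences are *pex5*-/- minus WT and understate changes of genes with few reads. Poisson and binomial intervals cover 95% and counting error only. Some listed items are not reported here. Named genes are the 8 factors found, up to 3 tested genes per list and direction with the lowest limma p among those without overlap, and for each tested factor the 2 nearest factor genes in profile, and others are marked or serve as paralogues or markers. Values for markers of tissues beyond those bearing on a factor are not described. Names came from the table, in which some symbols stand for more than 1 gene. Alternatives covered the pseudocount, filter, scaling, trend, voom weights and each library left out.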

Additional observations from a re-analysis of the deposited data

How the results depend on the processing

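The log2 differences of *foxa1*, *foxa2*, *foxa3* and *prox1a* stayed below 0 under all 13 alternatives, from -0.51 to -0.07, -0.81 to -0.46, -1.19 to -0.56 and -0.60 to -0.06, and no factor reached an adjusted p under 0.05 (lowest 0.765). The lowest unadjusted limma p was 0.0396, for *foxa3*. The filter and trend alternatives could not change any log2 difference. Where the genotypes did not overlap, as for *foxa2* and *foxa3*, another pseudocount or a library left out could not turn the sign. For these alternatives an unchanged sign is therefore no check. The difference of *cebpb* turned upward without WT replicate 1 (0.12) and without *pex5*-/- replicate 1 (0.41), and ranged from -0.53 to 0.41 over the libraries left out. The number of tested factors without overlap was 2. It was 3 with libraries scaled to the same total, where 19.3% of all tested genes lay below WT without overlap and 13.0% above. It was also 3 with scaling by the median of ratios (15.8% below and 15.8% above). With equal totals outside the mitochondrial genome it was 4 (22.2% below and 11.2% above), and with a library left out it was 2 to 5. The number of factors without overlap counts both directions. A single library in a genotype makes overlap rarer. Of all tested genes, 29.3% to 34.7% then had the *pex5*-/- side lower and 30.5% to 37.1% had it higher. The scaling outside the mitochondrial genome also moved the median of all genes to -0.12. Relative to it *foxa3* and *foxa2* were at -0.88 and -0.64. Scaling shifts all genes of a library almost alike, so a difference relative to the median could hardly change. Under it 62.3% of all genes were lower in *pex5*-/- against 49.5%. Genes passing in limma numbered 0 to 12 with a library left out (12 without WT replicate 1, 3 without WT replicate 4), where the lone library was assumed to vary like the others. The cause of these shifts was not tested. No paired analysis was possible because the sources used here give no pairing between WT and *pex5*-/- libraries. Few reads limit *cebpa*, *hnf4a* and *onecut1*, and the coverage of their 3′ ends by the annotation was not tested.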
